A study of Homo sapiens with 6 samples.

Results

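Semaphorins, ephrins, netrins and SLITs are ligands that steer growing axons, and plexins, neuropilins, Eph receptors, UNC5 proteins and ROBO proteins are the receptors that read them. The set described here is every protein-coding gene whose symbol belongs to those 9 families, 68 genes of the 60623 in the count table, 35 ligands and 33 receptors. The members were chosen by symbol, but the set was proposed with results of this same comparison known, so the counts and changes below describe these genes and support nothing about the set as a whole.

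The cells were PLC/PRF/5, an established line from a human hepatocellular carcinoma, grown in DMEM with serum and given a lentivirus. By their labels, 3 libraries (ZFP64-OE) came from cells given a vector for overexpression of ZFP64, a zinc finger transcription factor, and 3 (control) from cells given a control vector. No promoter, clone or batch is named in the labels, and nothing there says that replicates were separate cultures, so each p-value reflects the spread of these libraries alone, part or all of which could be technical. The comparison asks which transcripts differ between cells given either vector.

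As background, these ligands act at short or long range and mostly repel or arrest moving cells through the actin cytoskeleton. Secreted class 3 semaphorins bind neuropilins, which signal through plexins, whereas membrane-bound semaphorins bind plexins directly. Ephrins sit on the cell surface and signal into both the cell that carries the Eph receptor and the cell that carries the ephrin. The same families act outside the nervous system, in blood vessels and in epithelia.

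Library totals ran from 26468949 to 39739674 counts, and their number limits the precision of the low members. The gene that the vector should raise did not match the labels. ZFP64 was at 35.0, 35.6 and 31.5 CPM (counts per 1000000, with library sizes adjusted by TMM) in ZFP64-OE-labelled libraries and at 142, 160 and 138 CPM in control-labelled libraries, 4.31-fold lower (edgeR adjusted p = 2.31e-12). Directions below follow the labels as given, which this gene contradicts; if the labels of the groups were exchanged, every direction would turn. Which holds was not tested. Replicate 1 labelled control stood apart from the others on the second principal component, which held 23.8% of the variance. The hepatocyte list, with none of its 10 genes at 0, summed to 18949 to 24954 CPM in ZFP64-OE-labelled libraries and 15356 to 21101 CPM in control-labelled ones (p = 0.2, exact two-sided permutation test). Within it APOB averaged 14504 against 8455 CPM and SERPINA1 2576 against 4544 CPM. Of other cell types, summed marker levels did not overlap between the groups and were lower in ZFP64-OE-labelled libraries for neuronal (84.8 to 90.5 against 90.8 to 107 CPM), endothelial (4.28 to 6.38 against 13.3 to 13.6), fibroblast (6.77 to 8.47 against 9.9 to 11.4) and macrophage markers (320 to 388 against 522 to 574), each at p = 0.1, the smallest the exact two-sided permutation test allows. In FPKM the neuronal sums overlapped (20.3 to 22.2 against 21.7 to 27.1). The most abundant gene of each list carried much of the sum (SNAP25, PECAM1, PDGFRB and LYZ). LYZ averaged 357 CPM in ZFP64-OE-labelled libraries against 545 in control-labelled ones, and CSF1R, the next macrophage gene, 0.382 against 0.419. PECAM1 averaged 4.51 against 12.7 CPM, and CDH5, the next endothelial gene, 0.312 against 0.362. The differences of the endothelial and macrophage sums were thus largely those of PECAM1 and LYZ. Among fibroblast markers PDGFRB averaged 4.84 against 5.32 CPM, and COL3A1 0.692 against 3.38 CPM. Defining genes were at 0 in all 6 libraries: ELAVL4 and STMN2 for neurons, TEK, KDR and ERG for endothelium, COL1A2 for fibroblasts, and C1QA, TYROBP and PTPRC for macrophages. Their part in the results below was not tested. PLC/PRF/5 is an established carcinoma line, so these sums are read as transcript levels of the listed genes. They are not read as numbers of neurons, endothelial cells, fibroblasts or macrophages, which bulk RNA does not count.

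The families differed in how many of their members PLC/PRF/5 cells transcribed. By FPKM, the authors' counts per kilobase of gene and per 1000000 counts, 24 of the 68 members averaged at least 1 over the 6 libraries and 25 averaged under 0.1. Those at 1 or more were 7 of 9 plexins, 7 of 20 semaphorins, 6 of 8 ephrins and 2 of 14 Eph receptors, with 1 neuropilin, 1 ROBO gene and no netrin, SLIT or UNC5 gene. The highest ligand was the membrane semaphorin SEMA4G, with 37.9% of the summed ligand FPKM. It was at 45.9 ± 1.51 FPKM in ZFP64-OE-labelled libraries and 42.9 ± 3.03 in those labelled control (SD, n = 3 each). The level and share of SEMA4G are uncertain, because exons of MRPL43 on the opposite strand cover 22.27% of its exon bases. The highest receptors were PLXNB2, a plexin of class B (37.5 ± 2.43 and 38.2 ± 3.53 FPKM), ROBO1, a SLIT receptor (34.7 ± 4.16 and 34.2 ± 4.21), and NRP1, the neuropilin that also binds VEGF (22.7 ± 1.91 and 22.3 ± 1.99). Several receptors thus stood beside scarce classical partners: ROBO1 was abundant while no SLIT gene exceeded 8 counts in any library, and NRP1 was abundant while SEMA3A, its best known ligand, stayed at or under 12 counts. Some other class 3 semaphorins had more, with 108 to 149 counts a library for SEMA3C and 118 to 174 for SEMA3D. ROBO4 and PLXNA4 had 0 counts in all 6 libraries, which allows up to 0.0755 to 0.113 CPM depending on the library (3 counts of the total, counting error only).

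**Figure D1:**
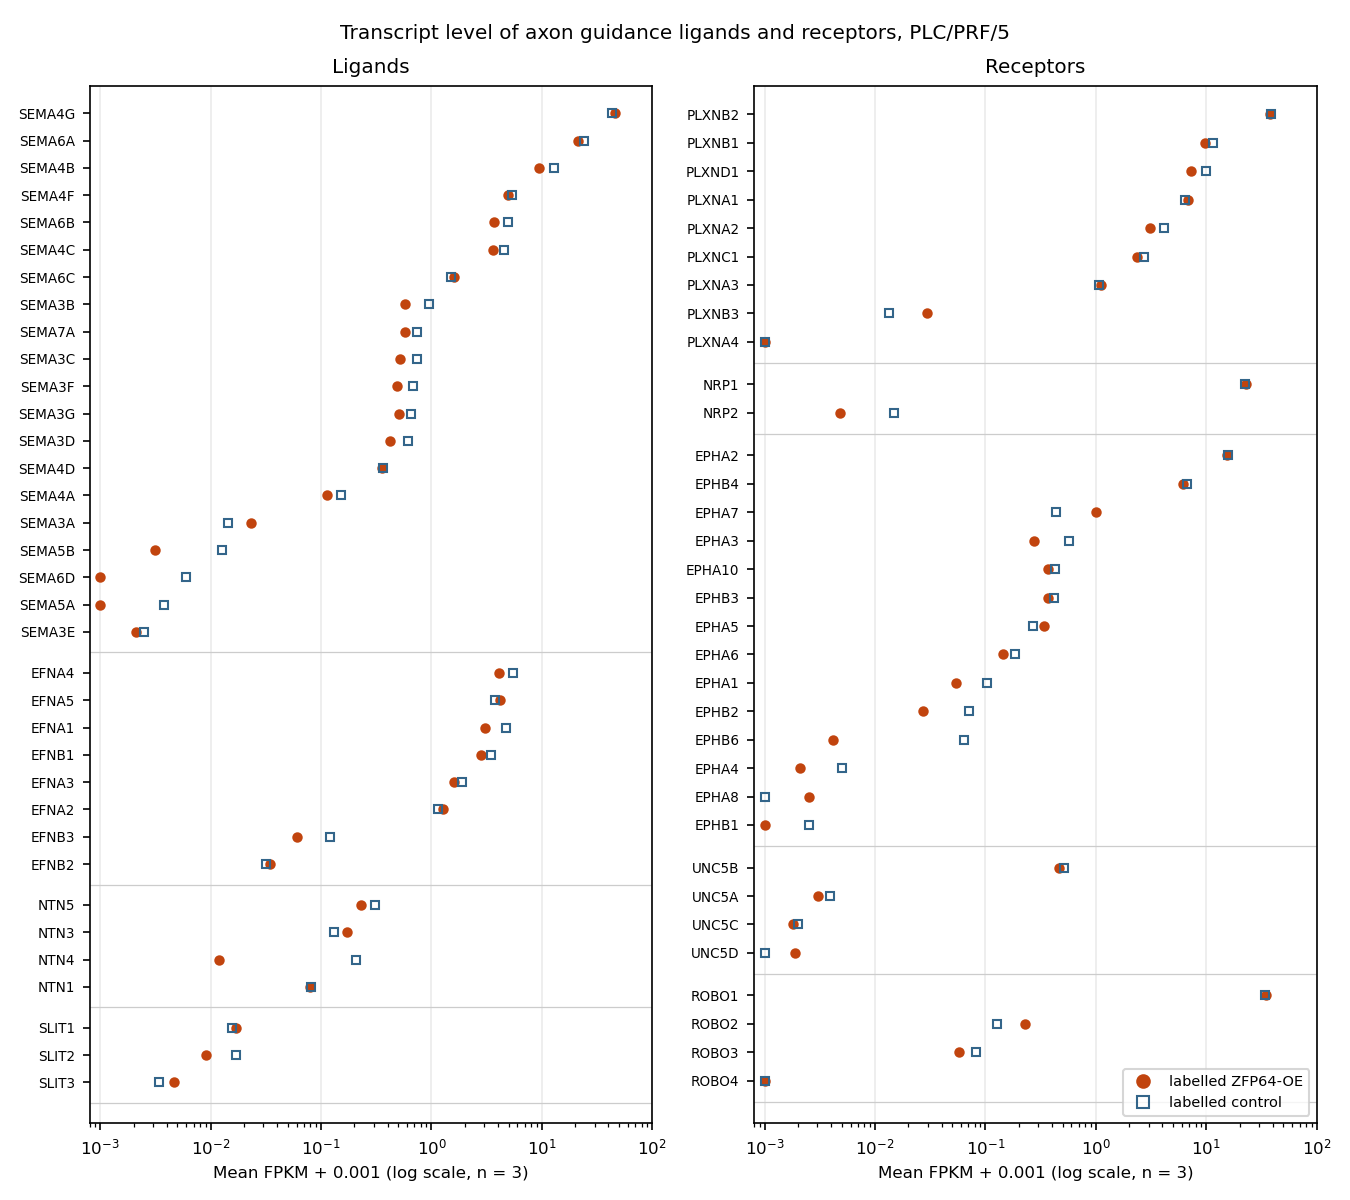
Mean FPKM of the 68 members in ZFP64-OE-labelled libraries (filled circles) and labelled control (open squares), n = 3 each, on a log axis after adding 0.001, ordered by level within each family and split into ligands and receptors. SEMA4G, PLXNB2, ROBO1 and NRP1 lead, the SLIT genes lie near the floor, and for those 4 leading genes the symbols of both groups coincide.

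Of the 68 members, 48 had enough counts to be tested, and 13 of these passed an adjusted p of 0.05 in edgeR's quasi-likelihood test, with adjustment over all 19173 genes kept. They were 11 lower and 2 higher in ZFP64-OE-labelled libraries, and 35 tested members did not pass. Over all genes tested, 5.81% passed, 4.03% lower and 1.78% higher; since the set was proposed from this contrast, nothing is read from the members' larger share. Over all genes edgeR gave 772 lower and 342 higher, and DESeq2 599 lower and 455 higher. Among the ligands 7 were lower and 0 higher, and among the receptors 4 were lower and 2 higher. The median log2 fold change of the tested members was -0.222, against -0.017 over all genes tested, and 34 of the 48 lay below 0, where 53.2% of all tested genes did. In CPM the groups did not overlap for 23 of the 48 (21.9% of all tested genes) and for 12 of the 13 that passed. Of the 48, 4 passed the filter on low counts only through the control libraries and 1 only through the libraries labelled ZFP64-OE, so their counts and changes are tied to that choice. Of these 5, EPHB2 and NTN4 passed the test, and EFNB3, EPHA1 and NTN3 did not. Another 7 members had an unadjusted p under 0.05 in edgeR without passing: EFNA4, EFNB1, EFNB3, SEMA3C, SEMA3F, EPHA1 and PLXNB1. The 20 members too low to be tested, none above 19 counts in a library, were SLIT1, SLIT2, SLIT3, EFNB2, SEMA3A, SEMA3E, SEMA5A, SEMA5B, SEMA6D, EPHA4, EPHA8, EPHB1, EPHB6, ROBO4, UNC5A, UNC5C, UNC5D, NRP2, PLXNA4 and PLXNB3. Exons of other annotated genes covered at most 1.07% of the exon bases of a called member.

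**Figure D2:**
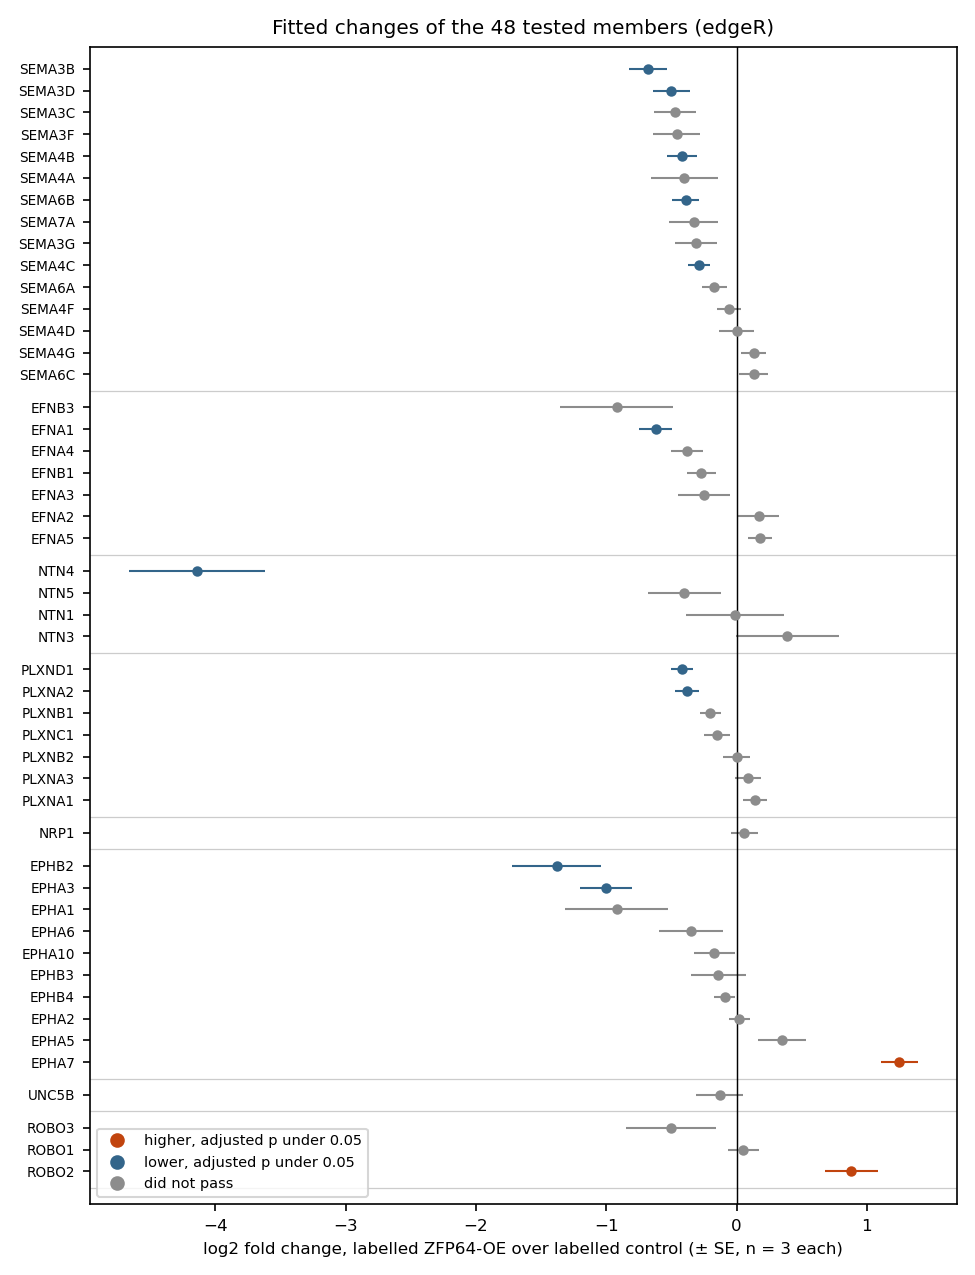
Fitted log2 fold change of the 48 tested members, libraries labelled ZFP64-OE over control (n = 3 each), with its standard error, grouped by family. Colour marks the 13 that passed an adjusted p of 0.05: EPHA7 and ROBO2 lie above 0, and the other 11 below, with NTN4 farthest at -4.14.

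The fitted difference reached 2-fold for 4 tested members that passed, NTN4, EPHB2, EPHA3 and EPHA7. Their promoters are shown because these had the largest fitted changes among the members that passed, in both directions, as the 300 bases from 250 before to 50 after a RefSeq transcript start (GRCh38.p14), taking the window that holds the gene's annotated end at its 5′ side. EPHA7 lies at chr6:93419510-93419809 on the minus strand, NTN4 at chr12:95791106-95791405 on the minus strand, EPHB2 at chr1:22710588-22710887 on the plus strand and EPHA3 at chr3:89107371-89107670 on the plus strand. Capitals mark 3 motifs searched on both strands: the GC box with the letters GGGCGG, the TATA box with the letters TATAAA, and the CCAAT box, named by its letters.
EPHA7: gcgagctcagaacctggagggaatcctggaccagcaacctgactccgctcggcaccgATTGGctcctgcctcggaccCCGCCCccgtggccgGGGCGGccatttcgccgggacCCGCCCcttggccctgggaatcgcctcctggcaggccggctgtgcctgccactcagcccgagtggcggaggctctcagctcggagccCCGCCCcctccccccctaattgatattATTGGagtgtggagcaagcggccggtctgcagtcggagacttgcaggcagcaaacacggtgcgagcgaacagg
NTN4: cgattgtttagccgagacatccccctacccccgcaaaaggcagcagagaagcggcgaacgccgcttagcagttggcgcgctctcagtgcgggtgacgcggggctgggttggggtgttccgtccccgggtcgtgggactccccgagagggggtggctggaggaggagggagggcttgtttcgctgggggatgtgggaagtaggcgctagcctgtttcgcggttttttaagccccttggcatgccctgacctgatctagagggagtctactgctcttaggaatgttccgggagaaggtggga
EPHB2: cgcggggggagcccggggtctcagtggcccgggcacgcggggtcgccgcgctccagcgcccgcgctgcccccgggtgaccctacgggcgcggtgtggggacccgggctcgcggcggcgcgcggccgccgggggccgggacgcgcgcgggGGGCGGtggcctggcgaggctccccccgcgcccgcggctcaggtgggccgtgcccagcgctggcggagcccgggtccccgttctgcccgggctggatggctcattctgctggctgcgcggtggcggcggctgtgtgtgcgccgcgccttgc
EPHA3: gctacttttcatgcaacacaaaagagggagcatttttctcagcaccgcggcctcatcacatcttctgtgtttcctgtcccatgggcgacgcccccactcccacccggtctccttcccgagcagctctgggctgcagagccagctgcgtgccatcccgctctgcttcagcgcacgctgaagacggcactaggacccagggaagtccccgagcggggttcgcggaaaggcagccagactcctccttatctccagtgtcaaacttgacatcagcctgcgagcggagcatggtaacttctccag
EPHA7, the member that was higher, held 4 GC boxes and 2 CCAAT boxes in its window, EPHB2 held 1 GC box, and NTN4 and EPHA3 held none of the 3 motifs. EPHB2 was the richest in G and C, at 83% with 49 CpG sites, and EPHA3 the poorest, at 59.7% with 17. A GC box stood in 45% of all 35116 RefSeq promoter windows of this length and in 73.3% of the 90 windows that belong to members (58 of 68 members matched by symbol, some with several overlapping windows). A TATA box stood in 11.5% of all windows and 3.33% of the members' windows, and a CCAAT box in 34.6% and 31.1%.

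Semaphorins were 15 of the 26 tested ligands and 5 of the 7 that passed, and all 5 were lower. Over all genes tested 5.81% passed, and nothing is read from the share of the semaphorins. Of 20 semaphorins 15 were tested, 5 were lower, 0 higher and 10 did not pass, and the 5 differed by 1.22-fold to 1.6-fold. SEMA3B, a secreted semaphorin studied as a tumour suppressor in lung cancer, was at 2.93, 3.76 and 3.40 CPM in ZFP64-OE-labelled libraries and at 4.83, 5.76 and 5.50 CPM in control-labelled libraries. The groups did not overlap, and the log2 fold change was -0.68 with a standard error of 0.149 (edgeR adjusted p = 0.00762). SEMA3D, another secreted class 3 member, was at 3.60, 3.29 and 3.34 CPM against 4.83, 4.53 and 5.16 CPM, again without overlap (-0.50, standard error 0.143, edgeR adjusted p = 0.0436).

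The other calls among semaphorins were membrane-bound proteins at higher levels. SEMA4B was at 63.1, 78.6 and 59.9 CPM in ZFP64-OE-labelled libraries and 90.0, 104 and 75.6 CPM in control-labelled libraries. It was the only called member whose groups overlapped, since ZFP64-OE replicate 2 lay above control replicate 3 (log2 fold change -0.42, standard error 0.116, edgeR adjusted p = 0.0486). SEMA4C, a ligand of class B plexins, was at 21.5, 24.1 and 23.1 against 28.4, 28.0 and 27.3 CPM (-0.29, standard error 0.0827, edgeR adjusted p = 0.0456). SEMA6B, a transmembrane ligand of class A plexins, was at 14.1, 18.6 and 15.8 against 20.7, 23.1 and 19.6 CPM (-0.39, standard error 0.105, edgeR adjusted p = 0.0327). Both were separated between the groups, SEMA6B by a narrow margin (18.6 against 19.6 CPM in the nearest libraries).

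The most abundant semaphorin did not pass. SEMA4G was at 243, 256 and 234 CPM against 251, 219 and 201 CPM, with overlapping groups and a fitted log2 change of 0.13 (standard error 0.0928, edgeR adjusted p = 0.502). Its value is uncertain, because exons of MRPL43 on the opposite strand cover 22.27% of its exon bases in GENCODE v29 and the strand setting of the counting is not given in the sources used here. All 5 tested class 3 semaphorins had log2 fold changes below 0, from -0.31 for SEMA3G to -0.68 for SEMA3B. All 5 were separated between the groups, although 3 did not pass. Over all genes tested, 53.2% lay below 0 and 21.9% were separated. Nothing is read from the count of these 5 genes, since the set was proposed from this contrast. Their summed level with the 2 untested class 3 members was 2.50, 2.62 and 2.49 FPKM in ZFP64-OE-labelled libraries and 3.42, 3.71 and 3.79 FPKM in control-labelled libraries. SEMA3B and SEMA3F lie close together on chromosome 3 (50267558 to 50277546 and 50155045 to 50189075, GRCh38), and SEMA3F, a secreted ligand of NRP2, lay at -0.46 on that scale and did not pass (adjusted p = 0.165 by edgeR).

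EFNA1, a membrane-anchored ligand of EPHA2 and other EphA receptors, was the ephrin that passed. It was at 5.57, 7.18 and 7.19 CPM in ZFP64-OE-labelled libraries and at 11.0, 10.2 and 9.39 CPM in control-labelled libraries. The groups did not overlap, and the other 6 ephrins tested did not pass (EFNA1 log2 fold change -0.62, standard error 0.126, edgeR adjusted p = 0.00407). EFNA1 lies beside EFNA3 and EFNA4 on chromosome 1 between 155063731 and 155134857, and all 3 had log2 fold changes below 0. EFNA4, the highest ephrin by FPKM, was at 5.25, 5.30 and 5.01 CPM against 6.83, 7.11 and 6.32 CPM, separated but not past the threshold (-0.38, standard error 0.125, edgeR adjusted p = 0.0851). EFNA3 was at -0.25 (adjusted p = 0.554). A transcribed gene that joins both (AL691442.1) shares 14.96% of the exon bases of EFNA4 and 44.68% of those of EFNA3, so their counts are uncertain. EFNA5, by contrast, lay at 0.18 and EFNA2 at 0.17, neither past the threshold (edgeR adjusted p = 0.303 and 0.631).

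Netrin transcripts were scarce, and 1 of them held the largest fitted difference of all members. NTN4 encodes a netrin that binds laminin in basement membranes. It had 3, 0 and 2 counts in ZFP64-OE-labelled libraries and 24, 35 and 23 counts in control-labelled libraries. The groups were far apart, with a ratio of summed counts per library total of 19.5 in favour of the control libraries (95% exact interval 8.01 to 61.5, counting error only). The fitted log2 fold change of -4.14 (standard error 0.522, edgeR adjusted p = 2.42e-05) depends on the small count added to near-zero values. NTN4 passed the filter only through the control libraries. The other 3 netrins did not pass: NTN5, the highest by FPKM, had a log2 fold change of -0.40 (adjusted p = 0.469), NTN3 of 0.39 and NTN1, the founding axon guidance netrin, of -0.01. None of the 3 SLIT genes was tested, with 1 to 8 counts for SLIT1, 2 to 7 for SLIT2 and 0 to 3 for SLIT3 in a library.

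**Figure D3:**
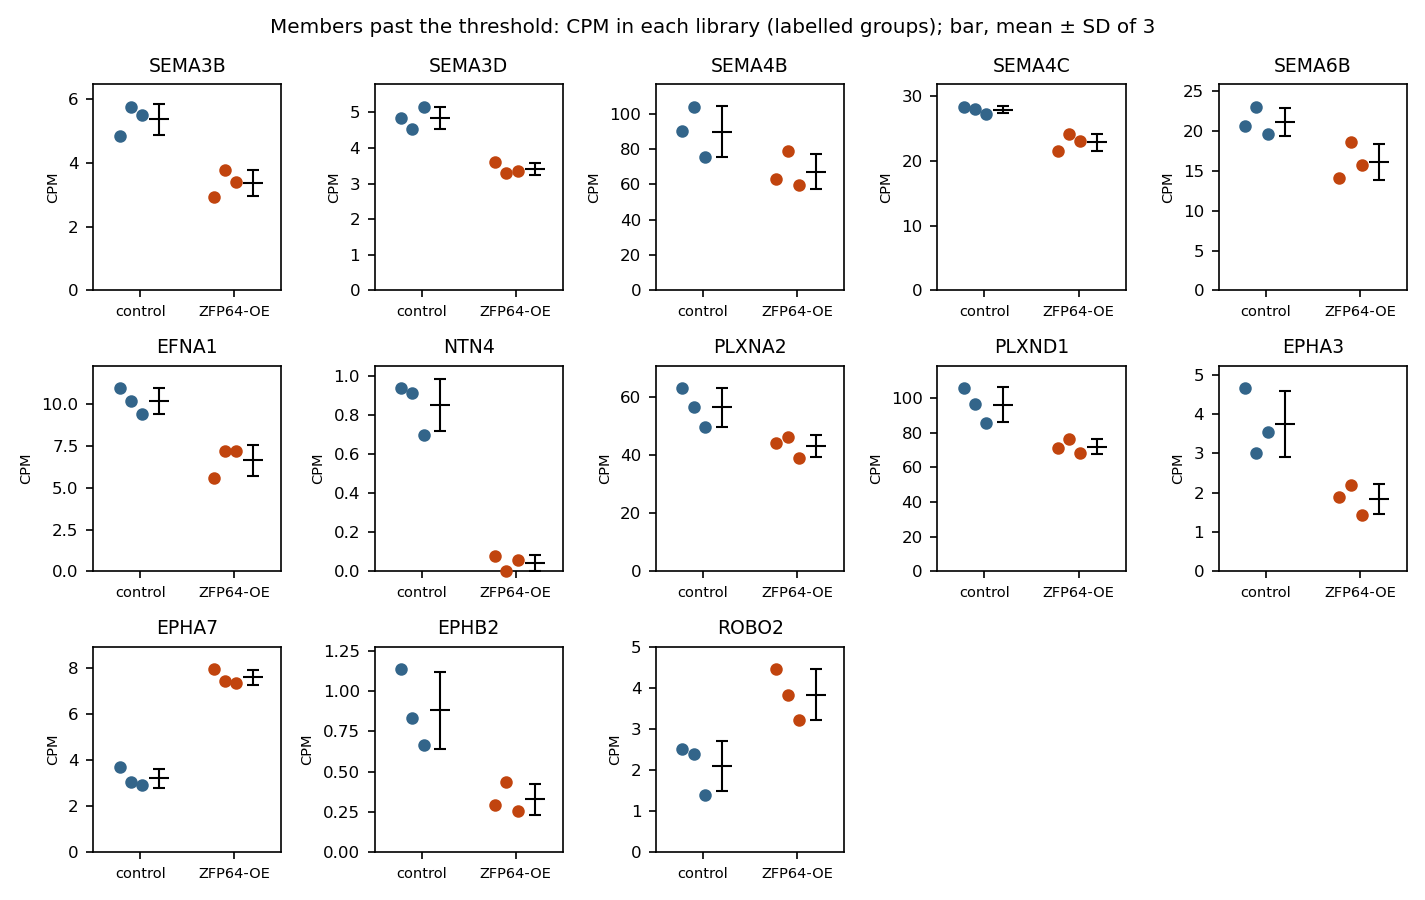
CPM in each library for the 13 members past the threshold, with control libraries at the left and libraries labelled ZFP64-OE at the right of each panel, replicates 1 to 3 in order, and the mean ± SD beside them. EPHA7 and ROBO2 are higher in ZFP64-OE-labelled libraries, NTN4 falls to near 0 there, and the points overlap between the groups for SEMA4B alone.

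Among the receptors, 2 of the 7 tested plexins were lower and 5 did not pass. PLXND1, a receptor of SEMA3E in vessels, was at 71.4, 76.5 and 68.1 CPM in ZFP64-OE-labelled libraries and at 106, 96.5 and 85.8 CPM in control-labelled libraries. The groups did not overlap (log2 fold change -0.42, standard error 0.0863, edgeR adjusted p = 0.00457). SEMA3E itself was close to absent, with 0 or 1 count in a library. PLXNA2, a receptor of class 3 and class 6 semaphorins, was at 44.4, 46.5 and 39.0 CPM against 63.4, 56.6 and 49.8 CPM, also separated (-0.38, standard error 0.0924, edgeR adjusted p = 0.0148). Its relatives PLXNA1 and PLXNA3 lay on the other side of 0 without passing (0.14 and 0.09, adjusted p = 0.430 and 0.683); whether they differ from PLXNA2 was not tested.

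The most abundant plexin and the neuropilin did not pass. PLXNB2 was at 274, 299 and 257 CPM against 318, 265 and 244 CPM, with overlapping groups and a fitted difference near 0 (standard error 0.101, edgeR adjusted p = 0.988). NRP1 was at 285, 275 and 236 CPM against 294, 233 and 238 CPM (log2 fold change 0.06, standard error 0.102, edgeR adjusted p = 0.822). NRP2, the other neuropilin, was near the floor, with 1, 3 and 2 counts in ZFP64-OE-labelled libraries and 5, 5 and 8 in control-labelled libraries, and was not tested.

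Eph receptors changed in both directions. Of 14 Eph genes 10 were tested, 1 was higher, 2 were lower and 7 did not pass. EPHA7 was at 7.97, 7.44 and 7.36 CPM in ZFP64-OE-labelled libraries and at 3.69, 3.05 and 2.92 CPM in control-labelled libraries, so every library of the former lay above every library of the latter. It was 2.37-fold higher (log2 fold change 1.25, standard error 0.139, edgeR adjusted p = 4.78e-06), the smallest adjusted p of the 48. EPHA3, a receptor of A-type ephrins, moved the other way, at 1.89, 2.19 and 1.44 CPM against 4.67, 3.02 and 3.55 CPM. The groups did not overlap (-1.0, standard error 0.2, edgeR adjusted p = 0.00322). EPHB2, a receptor of B-type ephrins and a Wnt target in the intestine, was at 0.293, 0.437 and 0.255 CPM against 1.14, 0.834 and 0.668 CPM, also separated (-1.38, standard error 0.340, edgeR adjusted p = 0.0175), and passed the filter only through the control libraries.

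The Eph receptors with the most transcript did not pass. EPHA2, the highest by FPKM and a receptor often raised in carcinomas, was at 64.5, 69.4 and 61.3 CPM against 68.4, 63.7 and 60.4 CPM (log2 fold change 0.02, standard error 0.0796, edgeR adjusted p = 0.924). It made up 63.6% of the summed Eph FPKM and EPHB4 another 26%, and the summed Eph level was 23.5, 25.7 and 23.3 FPKM against 24.9, 25.3 and 24.3 FPKM. The called receptors were far under EPHA2, which averaged 15.5 and 15.6 FPKM in the ZFP64-OE-labelled and control-labelled groups. EPHA7 averaged 1.0 and 0.434 FPKM, EPHA3 0.276 and 0.573 FPKM, and EPHB2 0.0259 and 0.0706 FPKM, in the same order. EPHB6, a receptor that lacks kinase activity, was too low to be tested, with 0, 2 and 0 counts in ZFP64-OE-labelled libraries and 4, 19 and 11 in control-labelled libraries. Its ratio of summed counts per library total was 20.2 in favour of the control libraries (95% exact interval 5.17 to 173, counting error only), and it passed when no filter was applied (edgeR adjusted p = 4.19e-05). Adjusted p values of that fit are not on the scale of the reported edgeR fit: NTN4 had 1.57e-12 against 2.42e-05, and SEMA3D 0.0565 against 0.0436. EPHB6 was not among the members that DESeq2 called. DESeq2 gave NTN4, which had more counts than EPHB6, no adjusted p, so nothing is read from the missing call.

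ROBO2 was the other member that was higher. It encodes a SLIT receptor known for its part in axon crossing and kidney development, and was at 4.48, 3.83 and 3.23 CPM in ZFP64-OE-labelled libraries and at 2.51, 2.40 and 1.40 CPM in control-labelled libraries. The groups did not overlap (log2 fold change 0.88, standard error 0.203, edgeR adjusted p = 0.0114). ROBO1, also on chromosome 3 (78597240 to 79767815, with ROBO2 at 75906695 to 77649964), was at 429, 409 and 330 CPM against 449, 342 and 336 CPM and did not pass (0.05, standard error 0.119, edgeR adjusted p = 0.866). ROBO1 made up 99.3% of the summed ROBO FPKM, so that sum overlapped between the groups (30.3 to 38.3 against 31.9 to 39.2 FPKM). UNC5B, the netrin receptor that can trigger cell death without its ligand, was the 1 UNC5 gene tested, at 2.93, 3.99 and 2.61 CPM against 3.45, 3.86 and 3.10 CPM (-0.13, standard error 0.178, edgeR adjusted p = 0.765).

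Partners and intracellular effectors of these receptors were taken from 5 lists of 102 genes in all, of which 84 were tested. Of these, 2 were higher, 7 lower and 75 did not pass, and the median log2 fold change was -0.00866. Over all genes tested 5.81% passed. The lists were chosen with earlier results of these data known, so nothing is read from their share. SDC1, a heparan sulfate proteoglycan of the class that SLIT and ROBO proteins need, was at 70.6, 77.1 and 68.7 CPM in ZFP64-OE-labelled libraries and at 130, 138 and 120 CPM in control-labelled libraries (log2 fold change -0.84, edgeR adjusted p = 8.88e-07). PAK3, a kinase activated by RAC and CDC42, was at 1.89, 2.34 and 2.21 against 6.87, 7.32 and 8.02 CPM (-1.79, adjusted p = 7.31e-08). DPYSL2, the collapsin response mediator that carries semaphorin signals, was at 1.95, 1.42 and 1.27 against 3.38, 3.44 and 2.67 CPM (-1.03, adjusted p = 0.00249). These 3 genes were separated between the groups, as were the other 6 that passed. Of the 84 tested, 17 were separated, where 21.9% of all tested genes were.

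The other 6 calls among the effectors had log2 fold changes between -0.89 and 0.87. RGS3, a regulator of G proteins that binds B-type ephrins, was lower by a fitted -0.89 in log2 (adjusted p = 0.0003 by edgeR), and GRB10, an adaptor, at -0.54 (0.0354). FARP1, a guanine nucleotide exchange factor linked to plexins, was at -0.34 (0.00934), and LIMK2, a kinase that inactivates cofilin, also at -0.34 (0.0449). VAV3, an exchange factor downstream of Eph receptors, was higher at 0.87 (0.00235), and ROCK1, the kinase downstream of RHOA, at 0.34 (0.0399). GRB10, ROCK1 and LIMK2 are uncertain. GRB10 lost its call without control replicate 1 or 2 or ZFP64-OE replicate 1 or 3 (edgeR adjusted p up to 0.144), ROCK1 without control replicate 2 or 3 or ZFP64-OE replicate 1 or 2 (up to 0.255), and LIMK2 without any library other than control replicate 1 (up to 0.205). None of the 5 tested partners of netrins passed.

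Of the 13 called members, EPHA7, NTN4, EPHA3, EFNA1 and PLXND1 stayed past the threshold with each library left out in turn, and 8 lost the call without at least 1 library. The call was kept by 8 of the 13 when control replicate 1 was left out, by 7 when control replicate 2 was, and by 6 when ZFP64-OE replicate 1 was. EPHB6 was newly past the threshold in the first and last of these, and ROBO2 lost its call in the last (adjusted p = 0.0542). SEMA3D and SEMA4C lost the call whichever of the 6 libraries was left out (edgeR adjusted p up to 0.158 and 0.234), SEMA4B in 4 of the 6 omissions (all but control replicate 3 and ZFP64-OE replicate 2, up to 0.212), SEMA6B in 3 (control replicate 2 and ZFP64-OE replicates 1 and 3, up to 0.189), EPHB2 in 3 (control replicates 1 and 2 and ZFP64-OE replicate 1, up to 0.0667), SEMA3B in 2 (without control replicate 2 or ZFP64-OE replicate 1, up to 0.0584) and PLXNA2 in 1 (without control replicate 1, 0.0626). With RLE or upper quartile scaling, 8 members remained lower, without SEMA3D, SEMA4B and SEMA4C. With limma on log2(FPKM + 0.1), EPHA7 and PLXND1 were the called members that stayed past the threshold. Some others missed it with fitted changes close to those of edgeR, such as EFNA1 at -0.64 (adjusted p = 0.0685), SEMA4B at -0.44 (0.234) and PLXNA2 at -0.41 (0.124). ROBO2 at 0.54 (limma adjusted p = 0.391) and NTN4 at -1.46 (0.0685) missed it with smaller changes than in edgeR.

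**Figure D4:**
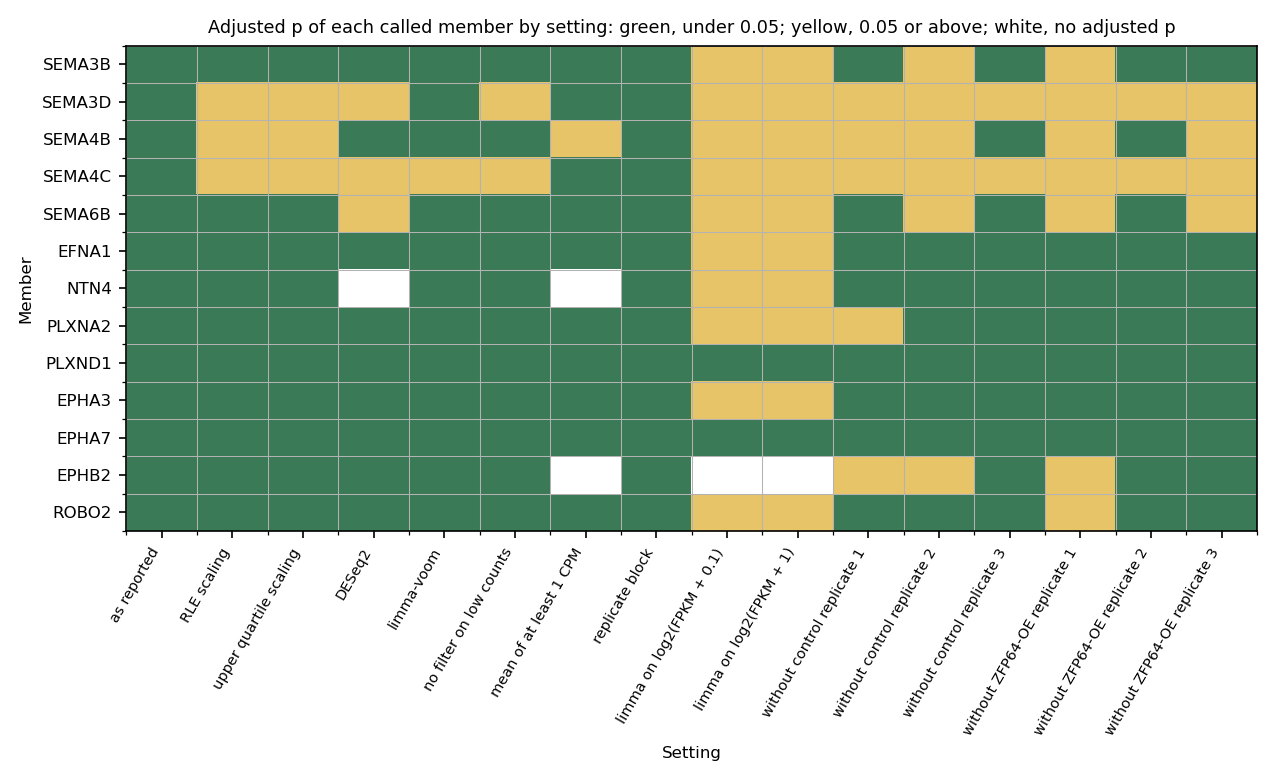
Adjusted p of the 13 called members (rows) under the reported fit and 15 alternatives (columns), green under 0.05, yellow at 0.05 or above and white where no adjusted p was given. EPHA7 and PLXND1 are green throughout, and the 5 semaphorins carry much of the yellow.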

How the data were processed

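Libraries of total RNA were made with the Illumina TruSeq kit after Trizol extraction, per the labels' protocols; the submitters' processing notes name HISAT2 and GRCh38, while the counting program, its annotation and its strand setting were not given in the sources used here. The deposited counts are raw whole numbers per gene. The deposited FPKM values are the authors' counts divided by gene length and library total. Genes were tested with edgeR 4.0.16 (R 4.3.3) on the counts: filterByExpr (minimum count 10, minimum total 15), TMM scaling, robust quasi-likelihood F-test on the labelled group, Benjamini-Hochberg adjustment over 19173 genes, threshold 0.05. A standard error is the size of the fitted log2 change over the root of its F. CPM values use the TMM factors. Alternatives were RLE and upper quartile scaling, DESeq2 1.42.0, limma 3.58.1, other filters, a replicate block and leaving out each library. Positions and exon overlaps are from GENCODE v29 (GRCh38), promoters from RefSeq.

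The members and lists were chosen with earlier results of these data known. Named genes are ZFP64, every member past the threshold, the most abundant tested member of each family that did not pass, and up to 10 companion genes past it; other members named were chosen after their values were seen. Libraries within a group varied beyond sampling noise (chi-square per gene of at least 11.6), so each counted as 1 sample.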

Additional observations from a re-analysis of the deposited data

How the results depend on the processing

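The 13 called members and the 9 called effectors kept their direction in every alternative that gave them a value. Among members, 11 were lower and 2 higher; the count lower was 7 with DESeq2 (which gave NTN4 no adjusted p), and lower and higher were 2 and 1 with limma on log2(FPKM + 0.1) and 1 and 1 on log2(FPKM + 1), where the members' median was -0.0871. Leaving out each library gave 5 to 10 lower (EPHB6, too low to be tested in the full set, among them in 4 of the 6) and 1 to 2 higher, with medians from -0.205 to -0.285. Effectors higher were 1 with limma-voom or a mean of at least 1 CPM and 0 in both FPKM fits, which called 2 lower; leaving out a library gave 1 to 5 higher. Over all genes, 342 were higher and 772 lower; these were 518 higher without a filter, 93 and 239 or 81 and 216 in the FPKM fits, and 160 to 585 higher and 427 to 1011 lower when each library was left out. DESeq2 called 455 higher and 599 lower. Genes that did not pass changed sign around 0: EPHA2 (-0.01 in both FPKM fits, -0.03 to 0.07 when each library was left out), PLXNB2 (-0.02 in both FPKM fits, -0.000546 at a mean of at least 1 CPM, -0.07 to 0.12 when each library was left out), and, also over left-out libraries, ROBO1 (-0.02 to 0.20), NRP1 (-0.01 to 0.17) and UNC5B (-0.33 to 0.00198). The cause was not tested. Depth limits the 20 untested members, none above 19 counts in a library.

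The labels give both groups replicates 1 to 3. Deviations of same-numbered libraries from their group means correlated weakly (r between 0.0183 and 0.0968). Those of differently numbered libraries ran from -0.187 (replicate 2 labelled ZFP64-OE with replicate 3 labelled control) to 0.15 (replicate 2 labelled ZFP64-OE with replicate 1 labelled control). With 3 libraries a group, these values cannot settle whether the numbers pair the samples. The reported fit used no pairing. With a replicate block 749 genes were higher and 1347 lower; 13 members were lower, adding EFNA4 and SEMA3C, 2 were higher, and 4 effectors were higher.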
